A study of Mus musculus with 31 samples.

Results

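The subject of this report is the proteasome in mouse lung after an injection of oleic acid, followed through the transcripts of its subunit genes. Members were taken by a rule on gene names: every gene on the array called Psma, Psmb, Psmc, Psmd or Psme followed by digits and nothing else, which gave 43 genes, of which 41 were among the 25147 gene or transcript names tested. The other two, Psma8 and Psmb11, which are core subunits known mainly from testis and from the thymus, were not above background on every array of any group. The lungs came from 31 female C57BL/6 mice aged 6 weeks, and the labels give each mouse as a separate sample. Oleic acid, a fatty acid used to model acute lung injury, was injected into a tail vein in 18 of them, in a dose of 1.2 µl for each g of mouse and a volume of 200 µl. The 13 controls received 200 µl of physiological serum, called saline here, by the same route. The 6 sampling times were 1, 1.5, 3, 4, 18 and 24 h, and each had 3 oleic acid mice and 2 saline mice, except 1 h, which had 3 of each. Whole-lung RNA was hybridised to Agilent arrays of 1 colour (Cy3, 200 ng of RNA), so each value is an average over all the cells of the organ.

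The proteasome degrades proteins that carry ubiquitin. Its barrel-shaped core has outer rings of alpha subunits (Psma genes) and inner rings of beta subunits (Psmb genes), and 3 of the beta subunits, Psmb5, Psmb6 and Psmb7, cut proteins. Interferon-gamma induces replacements for them, Psmb8, Psmb9 and Psmb10, which form the immunoproteasome and favour peptides that fit MHC class I molecules, together with Psme1 and Psme2, the subunits of the PA28 activator. A regulatory particle of ATPases (Psmc genes) and non-ATPase subunits (Psmd genes) binds ubiquitin chains, unfolds the substrate and feeds it into the core, and Psme3 and Psme4 encode other activators.

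The values below are log2 of the deposited intensity minus the 75th percentile of the same array, called the log2 signal here, so a difference of 1 is a doubling, and levels of different genes are not compared because each probe has its own response. Arrays of 2 mice were left out, oleic acid 1.5 h mouse 3 and oleic acid 3 h mouse 2, whose response to the spike-in RNA had slopes of 1.66 and 0.751 on the log scale, against 0.937 to 1.06 on the other 29 arrays. That left 16 oleic acid and 13 saline arrays. On 5 of them, 72.2% to 82.4% of the spots were above background, against 51.2% to 66.2% on the other 24, and values without those 5 are given where a call rests on them. All 8 lung epithelium and all 6 endothelium markers looked for were measured. Each of the 4 slides held a run of neighbouring times, and at 18 h the saline arrays lay on one slide and the oleic acid arrays on another, so that treatment and slide cannot be told apart at that time. All 6 oleic acid arrays of 18 and 24 h lay on slide 4 and all earlier ones on slides 1 to 3, so late and early times cannot be told apart from slide in oleic acid lungs, while the saline arrays of 4 and 18 h shared slide 3.

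No subunit gene passed the test between oleic acid and saline lungs at any time, in the catalytic core, the regulatory particle or the activators. The test was limma on 12 group means, with Benjamini-Hochberg adjustment over all 25147 names, and a gene was called at an adjusted p under 0.05. Oleic acid against saline, 0 of 41 members were called at 1, 1.5 and 3 h, where 0% of all names were called, 0 at 4 h and 0 at 18 h, where 0.0199% of all names were called at each time, and 0 at 24 h, where the share was 0.0159%. For the mean of 1 to 4 h 0 members were called, against 0% of all names, and for the mean of 18 and 24 h 0 members, against 0.00795%. At an unadjusted p under 0.05, the members called were 3, 0, 2, 5, 0 and 6 of 41 in order of time, against 4.3%, 1.43%, 6.29%, 7.64%, 2.31% and 4.74% of all names. In whole lung, fewer cells of a type and less RNA per cell cannot be told apart. The smallest adjusted p of any member was 0.647 at 4 h. A miss does not show that the treatments act alike. Over the members, the 95% intervals of the oleic acid minus saline difference reached from -0.52 (Psmd2) to 0.70 (Psmd6) for the mean of 1 to 4 h, and from -0.57 (Psme2) to 0.76 (Psme3) for the mean of 18 and 24 h. As folds, these outer bounds were 1.43-fold lower and 1.63-fold higher early, and 1.49-fold lower and 1.69-fold higher late. At single times the intervals were wider. They reached 2.50-fold lower (Psmd11) and 2.38-fold higher (Psmd6) at 3 h, and 2.08-fold lower (Psmd2) and 2.23-fold higher (Psmd14) at 24 h. The within-group SD had a median of 0.263 over the 5 inducible genes and 0.199 over the 36 others, against 0.316 over all names. These medians were not matched on signal level. Of the 25147 names 14228 had a mean log2 signal under 0, against 2 of the 41 members. Whether members vary less than other genes of like level was not tested.

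**Figure D1:**
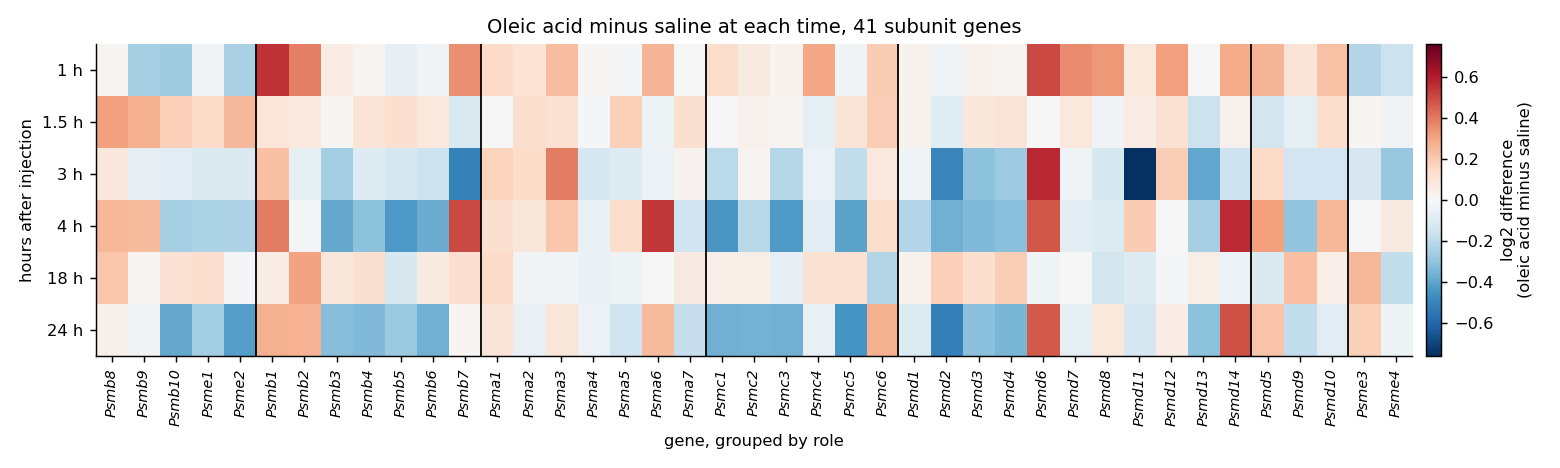
Difference in log2 signal, oleic acid minus saline, for the 41 subunit genes (columns, grouped by role) at 1, 1.5, 3, 4, 18 and 24 h (rows), with colour giving the size and direction of the difference. No cell passed the adjusted threshold, and the differences at single times lay between -0.76 (Psmd11 at 3 h) and 0.57 (Psmd6 at 3 h and Psmd14 at 4 h).

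The inducible catalytic subunits Psmb8 and Psmb9 lie beside each other in the MHC region of chromosome 17, and their probes match chr17:34337771-34337830 (Psmb8) and chr17:34319174-34319233 (Psmb9) in the mm9 build of the probe annotation. The 250 bases before each gene's start are printed because these genes are textbook targets of interferon-gamma. They come from RefSeq, build GRCm38.p6, at chr17:34197945-34198194 on the plus strand for Psmb8 and chr17:34187331-34187580 on the minus strand for Psmb9. Capitals mark matches on either strand to the gamma-activated site TTCNNNGAA (in Psmb8, 97 to 89 bases before the start), to the antioxidant response element core TGANNNNGC (in Psmb9, 60 to 52 bases before) and to the CCAAT box (in Psmb9, 8 to 4 bases before, on the other strand).
Psmb8: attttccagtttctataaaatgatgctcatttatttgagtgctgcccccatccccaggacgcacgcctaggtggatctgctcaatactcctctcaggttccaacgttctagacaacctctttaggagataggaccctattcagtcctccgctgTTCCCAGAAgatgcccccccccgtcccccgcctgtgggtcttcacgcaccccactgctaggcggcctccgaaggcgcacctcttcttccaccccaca
Psmb9: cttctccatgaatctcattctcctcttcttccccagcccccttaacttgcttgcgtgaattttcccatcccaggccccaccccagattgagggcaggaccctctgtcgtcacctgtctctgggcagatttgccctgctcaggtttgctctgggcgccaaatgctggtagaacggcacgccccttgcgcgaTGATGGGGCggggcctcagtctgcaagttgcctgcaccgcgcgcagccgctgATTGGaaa
Of the 41 measured members 35 had a promoter entry, and Psmb8 alone of them held the gamma-activated site, 2.86% of member promoters against 7.11% of all 27025 promoters in the table. The interferon-stimulated response element was in 0 of the 5 inducible genes' promoters and in those of Psmb3, Psmd4 and Psmd9, 8.57% of members against 3.06% of all. Psmb9 and the peptide transporter gene Tap1 start 225 bases apart on opposite strands, and 225 of the 250 bases printed for Psmb9 also lie in the Tap1 window.

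Psmb8, which gives the immunoproteasome its chymotrypsin-like activity, had the higher oleic acid mean at all 6 times, by amounts that did not pass the test. At 1 h its log2 signal was 4.24, 4.48 and 4.00 in oleic acid lungs and 3.80, 4.51 and 4.36 in saline lungs, and at 1.5 h it was 4.29 and 4.27 in oleic acid lungs and 4.14 and 3.80 in saline lungs. At 3 h it was 3.90 and 3.86 in oleic acid lungs against 3.69 and 3.90 in saline lungs, and at 4 h 4.30, 3.56 and 3.57 against 3.37 and 3.74. The treatments overlapped at 1, 3 and 4 h, and every oleic acid value lay above every saline value at 1.5 h. With 2 or 3 arrays a group, full separation is common even without a true difference. The share of all names that separated was not counted, here or below, so separation alone is no evidence of a difference. At 18 h Psmb8 was at 3.68, 3.62 and 3.68 in oleic acid lungs and 3.58 and 3.31 in saline lungs, and at 24 h at 4.03, 3.83 and 3.89 in oleic acid lungs and 3.81 and 3.94 in saline lungs. The oleic acid values were again all higher at 18 h and overlapped with saline at 24 h. The difference was 0.31 at 1.5 h (95% interval -0.20 to 0.82) and 0.21 at 18 h (-0.26 to 0.67), and the mean of 1 to 4 h was 0.17 (-0.07 to 0.40, limma adjusted p = 0.701). With the 2 omitted arrays put back, that mean turned to -0.11. Psmb8 and Psmb1, a structural beta subunit, were the members with the oleic acid mean above the saline mean at every time, 4.88% of the members, against 3.73% of all names.

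Psmb9, the inducible partner of Psmb6, was higher in oleic acid lungs at some times and lower at others. Its log2 signal at 1 h was 4.07, 4.32 and 3.88 in oleic acid lungs and 4.02, 4.88 and 4.14 in saline lungs, and at 4 h it was 4.48, 3.74 and 3.40 in oleic acid lungs and 3.32 and 3.94 in saline lungs. At 18 h it was 3.65, 3.53 and 3.56 in oleic acid lungs and 3.81 and 3.31 in saline lungs, and at 24 h 4.32, 3.97 and 3.94 against 4.11 and 4.09. The treatments overlapped at each of these times. The largest differences were 0.27 at 1.5 h (-0.40 to 0.93) and -0.25 at 1 h (-0.80 to 0.29). Psmb8 and Psmb9 were both highest at 1.5 h in oleic acid lungs and at 1 h in saline lungs.

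Psmb10, the inducible partner of Psmb7, and Psme1 and Psme2, the PA28 subunits, were lower in oleic acid lungs at 24 h without passing the test. Psmb10 had a log2 signal at 24 h of 5.35, 5.39 and 5.09 in oleic acid lungs and 5.88 and 5.46 in saline lungs. Psme2 was at 5.73, 5.69 and 5.38 in oleic acid lungs and 6.29 and 5.75 in saline lungs, and Psme1 at 4.81, 5.02 and 4.71 against 5.26 and 4.95. For Psmb10 and Psme2 every oleic acid value lay below both saline values, and for Psme1 they overlapped. The differences were -0.39 for Psmb10 (-0.98 to 0.20), -0.42 for Psme2 (-0.93 to 0.08) and -0.26 for Psme1 (-0.68 to 0.16), each with an adjusted p of 0.835. At 4 h Psme1 was at 5.05, 5.03 and 4.54 in oleic acid lungs and 5.08 and 5.15 in saline lungs, all lower, and Psmb10 at 5.25, 5.20 and 4.72 against 5.00 and 5.61, which overlap. Psme2 has 2 further probes, and over the mean of 18 and 24 h these gave 0.06 and 0.14 where the brightest gave -0.21, so the sign for Psme2 depends on the probe. As a set the 5 inducible genes had medians of -0.25 at 1 h, 0.25 at 1.5 h, -0.08 at 3 h, -0.24 at 4 h, 0.11 at 18 h and -0.26 at 24 h, beside medians over all names of 0.04, -0.02, -0.00, -0.08, -0.02 and -0.12. All 5 were above 0 at 1.5 h, and 4 of 5 were below 0 at 1 h and at 24 h. Under every processing alternative the set's median stayed below 0 at 1 h and above 0 at 1.5 h, while at 4 h it was 0.07 with all probes of a gene averaged and at 18 h -0.12 without the 5 arrays of high background.

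**Figure D2:**
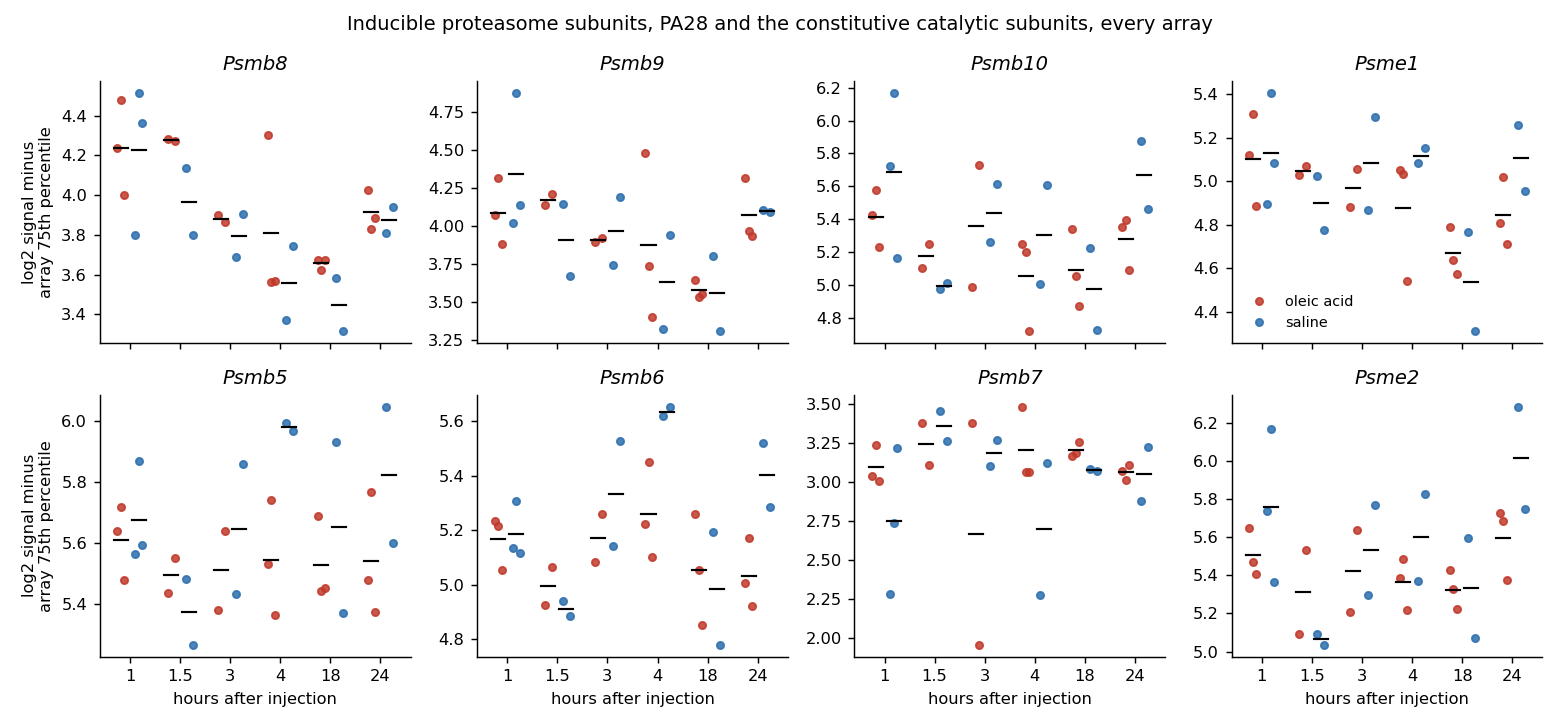
Log2 signal (log2 intensity minus the array's 75th percentile) of Psmb8, Psmb9, Psmb10 and Psme1 (top) and Psmb5, Psmb6, Psmb7 and Psme2 (bottom) at each time in hours, with 1 point per array, oleic acid in red to the left of saline in blue, and black bars for group means. The treatments overlap in most panels and times, and the lowest Psmb7 point, 1.95, is an oleic acid array at 3 h.

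Of the constitutive catalytic subunits, Psmb5 and Psmb6 were lower in oleic acid lungs at 4 h, and Psmb6 also at 24 h. Psmb7 went the other way at 4 h, with a higher mean in oleic acid lungs. None of these differences passed the test. Psmb5, the chymotrypsin-like subunit, had a log2 signal at 4 h of 5.53, 5.74 and 5.37 in oleic acid lungs and 6.00 and 5.97 in saline lungs. Psmb6, the caspase-like subunit, was at 5.22, 5.45 and 5.10 in oleic acid lungs and 5.62 and 5.65 in saline lungs at 4 h, and at 5.01, 5.17 and 4.92 against 5.52 and 5.29 at 24 h. In these 3 cases every oleic acid value lay below every saline value, a separation whose share among all names was not counted. The differences were -0.43 for Psmb5 at 4 h (-0.84 to -0.03) and -0.38 for Psmb6 at 4 h (-0.71 to -0.04), each with an adjusted p of 0.647, and -0.37 for Psmb6 at 24 h (-0.70 to -0.03, adjusted p = 0.835). Psmb7, the trypsin-like subunit, was at 3.38 and 1.95 in oleic acid lungs and 3.10 and 3.27 in saline lungs at 3 h, so a single array set its difference of -0.52 there (-1.24 to 0.20).

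Each inducible subunit was also set against the one it replaces, as a difference of transcript signals within the same array. It is expressed relative to the mean of all saline arrays and given without a test. A rise can come from either transcript, and exchange of the proteins in the proteasome was not measured. Psmb8 minus Psmb5 was above saline in oleic acid lungs at all 6 times, by group mean. It averaged 0.63 ± 0.09 in oleic acid and 0.44 ± 0.09 in saline lungs at 1.5 h (SD, n = 2 each). At 4 h it averaged 0.11 ± 0.48 in oleic acid lungs (n = 3) and -0.58 ± 0.28 in saline lungs (n = 2), the widest separation. At 24 h the values were 0.22 ± 0.27 and -0.10 ± 0.41, and the arrays ran from -0.33 to 0.62 in oleic acid and from -0.78 to -0.38 in saline lungs at 4 h. Without oleic acid mouse 1 the 4 h difference of 0.69 became 0.44. Psmb9 minus Psmb6 at 4 h was 0.55, -0.42 and -0.41 in oleic acid lungs and -1.01 and -0.42 in saline lungs, so the treatments overlapped and the difference of 0.62 was 0.30 without mouse 1. It was lower in oleic acid lungs at 1 h, at 0.21 ± 0.15 against 0.45 ± 0.36. Psmb10 minus Psmb7 ran the other way at 4 h, at -0.52 ± 0.25 in oleic acid and 0.23 ± 0.17 in saline lungs.

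Psmb8 varied with Psmb9 over the arrays, and Psme1 with Psme2, the only pairs of inducible genes tested. Over the 29 arrays, Psmb8 and Psmb9 had a Pearson r of 0.876 and a Spearman rho of 0.890 (permutation p = 1e-05 for each, the smallest these permutations can give, 4e-05 after adjustment over the 4 pairs tested). The permutations shuffled all arrays without regard to group or slide. Differences between times, treatments or slides can therefore enter every p of this paragraph, which does not measure variation between mice of one group. Leaving out the 2 arrays farthest from the median of Psmb8 gave r = 0.853, and within the 4 slides r was 0.731, 0.785, 0.948 and 0.939. For deviations from the 12 group means, which leave mouse-to-mouse differences, r was 0.888 for this pair, 0.698 for Psme1 and Psme2, 0.688 for Psmb9 and Tap1 and 0.289 for Psmb8 and Psmb5. Psme1 and Psme2 had r = 0.610 and rho = 0.572 (permutation p = 0.00048 and 0.00144, adjusted 0.000933 and 0.00192), with 0.550 without the 2 farthest arrays and 0.506, 0.848, 0.763 and 0.950 within slides. Psmb9 and Tap1 had r = 0.603 and rho = 0.633 (permutation p = 0.0007 and 0.00046, adjusted 0.000933 and 0.00092), with 0.548 without the 2 farthest arrays and 0.670, 0.865, 0.742 and 0.470 within slides. Psmb8 and Psmb5, which take the same place in the ring, had r = -0.03 and rho = 0.06 (permutation p = 0.896 and 0.771), with -0.18 without the 2 farthest arrays and 0.747, 0.155, -0.11 and -0.01 within slides. Among all names, the features most like Psmb8 over the 29 arrays were Psmb9 (r = 0.876), Gm4902 (0.876, whose accession is now Phf11b), Zbp1 (0.851), Itgal (0.801) and H2-DMa (0.792). Among those most like Psmb9 after Psmb8 were Zbp1 (0.835), Gbp2 (0.817) and Dtx3l (0.813).

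Among the alpha subunits, which form the outer rings and the gate, Psma3 had the smallest p early. At 3 h its log2 signal was 4.95 and 4.99 in oleic acid lungs and 4.76 and 4.41 in saline lungs, and at 4 h 4.86, 4.57 and 4.96 against 4.67 and 4.51. Both oleic acid values at 3 h lay above both saline values, and at 4 h the treatments overlapped. The difference for the mean of 1 to 4 h was 0.24 (0.08 to 0.39), with a limma adjusted p of 0.66, and with all 31 arrays the difference at 3 h turned to -0.71. Psma6 at 4 h was at 3.42, 3.18 and 3.47 in oleic acid lungs and 2.54 and 3.10 in saline lungs, all higher, with a difference of 0.54 (0.02 to 1.06, adjusted p = 0.647). Of the 7 alpha subunits, 6 were above 0 for the mean of 1 to 4 h, with a median of 0.11. For the mean of 18 and 24 h 3 were above 0, with a median of -0.04 that became 0.21 with arrays centred on their median.

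The 6 ATPases, which unfold substrates, had mostly negative differences at 4 and 24 h, again without a call. Their median difference was -0.31 at 4 h with 5 of 6 below 0, and -0.36 at 24 h with 5 of 6 below 0, beside medians over all names of -0.08 and -0.12. In the authors' deposited table the ATPase medians were -0.11 and -0.00. The 8 lung epithelium markers had a mean log2 signal, relative to all saline arrays, of -0.04 in oleic acid and 0.18 in saline lungs at 4 h, and of -0.08 and 0.15 at 24 h, with 7 of 8 differences below 0 at each time and none called. The 6 neutrophil markers were at -0.17 in oleic acid and 0.57 in saline lungs at 4 h, all 6 differences below 0, and at -0.26 and -0.14 at 24 h. The part of cell content in the ATPase differences was not tested. Psmc1 was at 5.42, 5.56 and 5.40 in oleic acid lungs and 6.04 and 5.76 in saline lungs at 4 h, and at 4.99, 5.26 and 5.11 against 5.65 and 5.32 at 24 h, with no overlap at either time. The differences were -0.44 at 4 h (-0.74 to -0.14, adjusted p = 0.647) and -0.37 at 24 h (-0.67 to -0.06, adjusted p = 0.835). Psmc3 at 4 h was at 6.01, 6.31 and 6.02 in oleic acid lungs and 6.56 and 6.52 in saline lungs, all lower, a difference of -0.43 (-0.77 to -0.09). Psmc2 at 24 h differed by -0.36 (-0.69 to -0.04), and turned to 0.05 in the authors' deposited table of processed values.

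The 11 non-ATPase subunits included the largest single difference, which rested on 1 array. Psmd11, a lid subunit, was at 2.06 and 0.77 in oleic acid lungs and 2.13 and 2.22 in saline lungs at 3 h, a difference of -0.76 (-1.32 to -0.20, adjusted p = 0.716). The array at 0.77 is oleic acid mouse 3, which lies on another slide than the other 3 h arrays and also held the low Psmb7 value. Without it the Psmd11 difference was -0.12, and without the other oleic acid array, mouse 1, it was -1.40 and passed the threshold. Psmd6, another lid subunit, was higher in the oleic acid lungs by 0.39 for the mean of 1 to 4 h (0.07 to 0.70, adjusted p = 0.66), and Psmd2, a scaffold of the base, differed by -0.25. Late, the smallest p belonged to Psmb2 (0.29), Psmc3 (-0.21) and Psmc1 (-0.16), each with an adjusted p of 0.943 for the mean of 18 and 24 h. The effect of oleic acid at 18 and 24 h minus that at 1 to 4 h gave 0 members called, against 0% of all names.

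**Figure D3:**
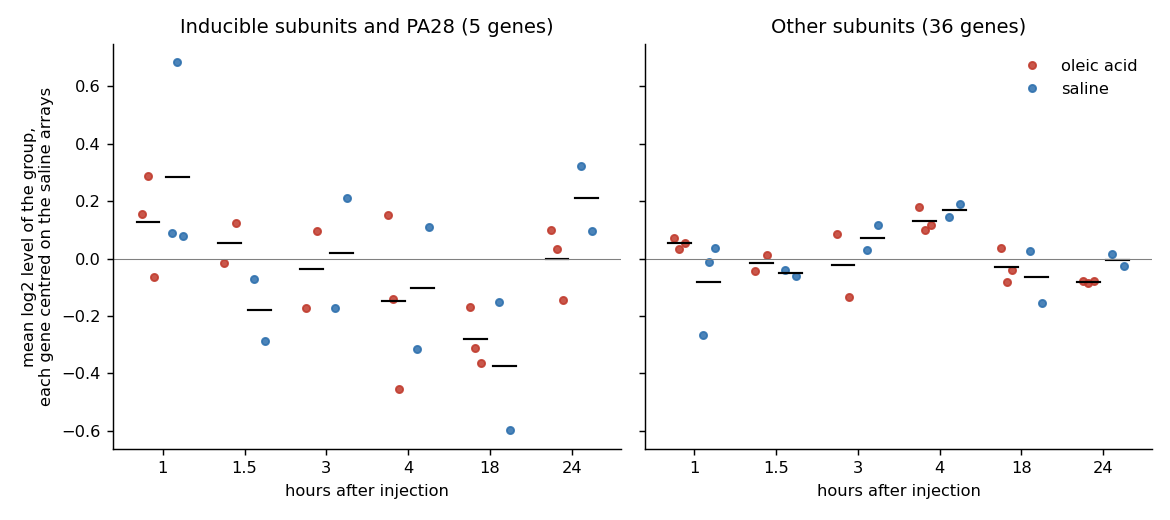
Mean log2 signal of the 5 inducible genes and of the 36 other subunits on each array, relative to the mean of the saline arrays, at each time in hours, with oleic acid points to the left of saline points. The inducible set averaged -0.28 in oleic acid and -0.37 in saline lungs at 18 h, its lowest means in both treatments, and the other subunits averaged 0.13 and 0.17 at 4 h, their highest.

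Calls among the subunits came between times within a treatment, and the time that stood out was 4 h. Of the members, 15 of 41 had their highest group mean at 4 h in both treatments, 36.6%, against 11.0% of all names. In oleic acid lungs alone it was 19 of 41, against 20.5% of all names, and in saline lungs 23 of 41, against 24.6%. None of the 5 inducible genes was among them. Under the processing alternatives the count in both treatments lay between 6, with all 31 arrays (8.50% of all names), and 15. The levels at 18 h and at 4 h were compared in each treatment, in oleic acid lungs as a comparison added after the values had been seen. The adjusted p of that added comparison does not allow for this choice, which can favour a fall. In oleic acid lungs, 3 of 41 members were lower at 18 h than at 4 h, 7.32%, with the times on different slides. Of all names 4.72% were called and 2.83% called lower, and whether the members exceeded that share was not tested. In saline lungs, with both times on one slide, 7 of 41 were lower and none was higher, 17.1%, against 6.33% of all names called and 4.59% called lower.

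The promoters of the 3 members called in oleic acid lungs are printed, since their differences had the same sign in both treatments. They come from RefSeq, GRCm38.p6, at chr12:100109952-100110201 (Psmc1), chr11:107479278-107479527 (Psmd12) and chr11:30771525-30771774 (Psme4), all on the plus strand, and capitals mark a CCAAT box in Psmc1 (175 to 171 bases before the start) and the TGANNNNGC core in Psmd12 (247 to 239, on the other strand, and 28 to 20 bases before).
Psmc1: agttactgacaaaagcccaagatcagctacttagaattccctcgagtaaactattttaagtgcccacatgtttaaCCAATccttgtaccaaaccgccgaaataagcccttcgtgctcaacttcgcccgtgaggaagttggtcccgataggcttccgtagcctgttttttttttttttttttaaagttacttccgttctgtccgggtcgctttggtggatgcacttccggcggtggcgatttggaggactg
Psmd12: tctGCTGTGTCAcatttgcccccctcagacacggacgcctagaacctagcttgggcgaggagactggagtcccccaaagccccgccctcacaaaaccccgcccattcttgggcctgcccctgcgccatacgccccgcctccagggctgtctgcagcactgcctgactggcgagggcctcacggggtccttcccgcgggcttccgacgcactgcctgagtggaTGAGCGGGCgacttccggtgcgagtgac
Psme4: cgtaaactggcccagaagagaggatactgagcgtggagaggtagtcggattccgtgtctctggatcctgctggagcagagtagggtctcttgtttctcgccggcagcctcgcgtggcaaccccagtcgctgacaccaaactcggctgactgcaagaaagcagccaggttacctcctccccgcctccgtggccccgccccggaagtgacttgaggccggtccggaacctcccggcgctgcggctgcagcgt
The 3 share none of the 4 motifs searched. TGANNNNGC was in 34.3% of the member promoters and in 35.1% of all promoters, and CCAAT in 37.1% and 34.2%.

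Psmc1, an ATPase of the regulatory particle read by a probe at chr12:101361515-101361574 (mm9), fell in both treatments. Its log2 signal in oleic acid lungs was 5.09, 5.02 and 4.90 at 18 h and 5.42, 5.56 and 5.40 at 4 h, and in saline lungs 5.01 and 4.89 at 18 h and 6.04 and 5.76 at 4 h. In each treatment every 18 h value lay below every 4 h value. The difference was -0.46 (-0.73 to -0.19, limma adjusted p = 0.0485) in oleic acid lungs and -0.95 (-1.28 to -0.62, adjusted p = 0.00266), or 1.93-fold lower, in saline lungs. Its second probe gave -0.50 in saline lungs. Of 10 alternative ways of processing, Psmc1 passed the threshold in oleic acid lungs under 3, where it also lost its call in 21 of 29 fits without 1 array, and in saline lungs under 8.

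Psmd12, a lid subunit (probe at chr11:107358963-107359022, mm9), fell in both treatments. It was at 3.07, 3.10 and 3.24 at 18 h and 3.92, 3.48 and 3.93 at 4 h in oleic acid lungs, and at 3.08 and 3.21 at 18 h and 3.89 and 3.68 at 4 h in saline lungs. No 18 h value reached a 4 h value. Its second probe gave -0.58 in saline lungs. The differences were -0.64 in both, with adjusted p = 0.0165 in oleic acid and 0.0406 in saline lungs. Of 10 alternative ways of processing, 5 kept the call in oleic acid and 3 in saline lungs, and it was lost in 4 and 12 of 29 fits without 1 array. In oleic acid lungs Psmd12 also had the smallest p of any member between the early and the late times as a whole: 18 and 24 h minus 1 to 4 h was -0.44 in oleic acid lungs (-0.64 to -0.25, adjusted p = 0.00945), with all late arrays, which are those on slide 4, below all early ones, and -0.31 in saline lungs (adjusted p = 0.142). In that late against early comparison 2 of 41 members were called in oleic acid lungs, 4.88%, both lower. Of all names 5.33% were called and 3.23% called lower, so this count lies near the background. In saline lungs 0 of 41 were called, against 2.68%. The second was Psma2, an alpha subunit, at -0.26 (-0.42 to -0.11, adjusted p = 0.0413), whose early and late arrays overlapped and which lost its call in 21 of 29 fits without 1 array.

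Psme4, the nuclear activator also known as PA200 (probe at chr11:30756055-30756114, mm9), was at -0.14, -0.04 and 0.06 at 18 h and 0.59, 0.70 and 0.56 at 4 h in oleic acid lungs. In saline lungs it was at 0.09 and 0.21 at 18 h and 0.53 and 0.57 at 4 h, so that both treatments separated the times completely. The difference was -0.66 in oleic acid lungs (-0.91 to -0.40, adjusted p = 0.00401), and -0.40 in saline lungs (-0.71 to -0.09), which missed the threshold at an adjusted p of 0.11. Its second probe gave -0.83 in saline lungs.

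The other 5 members called in saline lungs were Psmd4, the ubiquitin receptor, Psmb4, a structural beta subunit, the ATPase Psmc3, the catalytic Psmb6 and Psmd9, an assembly chaperone. Psmd4 was at 4.91 and 4.48 at 18 h and 5.45 and 5.56 at 4 h, a difference of -0.81 (adjusted p = 0.0258). Psmb4 was at 5.45 and 4.95 at 18 h and 5.85 and 5.87 at 4 h (-0.66, adjusted p = 0.0287), and Psmc3 at 6.11 and 5.63 against 6.56 and 6.52 (-0.67, adjusted p = 0.0322). In each of these the lower 18 h value came from the second saline mouse, one of the 5 arrays with more than 70% of spots above background. Psmb6 was at 5.19 and 4.78 at 18 h and 5.62 and 5.65 at 4 h (-0.65, adjusted p = 0.034), and Psmd9 at 0.80 and 0.53 against 1.35 and 1.27 (-0.64, adjusted p = 0.0389). For Psmb6 and Psmd9 too, the lower 18 h value came from the second saline mouse. Without that mouse the differences were -0.44 for Psmb6 and -0.51 for Psmd9. For all 5, both 18 h values lay below both 4 h values, a separation whose share among all names was not counted. In oleic acid lungs, leaving out mouse 1 or 3 of 4 h, or mouse 1 or 2 of 18 h, left 1 of 3 calls. Leaving out saline mouse 1 or 2 of 4 h, or saline mouse 2 of 18 h, left 1 of the 7 saline calls each time, and leaving out saline mouse 1 of 1.5 h left 4. Without the 5 arrays 1 of 3 calls was left in oleic acid lungs, Psme4, and 1 of the 7 in saline lungs, Psmc1. By role, the median difference in oleic acid lungs was -0.27 for the 7 alpha subunits, -0.23 for the 6 ATPases, -0.19 for the 11 non-ATPase subunits and -0.02 for the 7 constitutive beta subunits. In saline lungs the medians were -0.50 for the ATPases, -0.39 for the non-ATPase subunits, -0.33 for the beta subunits and -0.11 for the alpha subunits. Whether the fall differed between treatments was tested in one fit, oleic acid minus saline, and 0 members passed, against 0.0119% of all names. That test sets a change between slides in oleic acid lungs against one within a slide in saline lungs. For Psmc1 that difference was 0.49 (adjusted p = 0.985). Between 24 and 18 h in oleic acid lungs 0 members were called, against 0.0119% of all names.

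**Figure D4:**
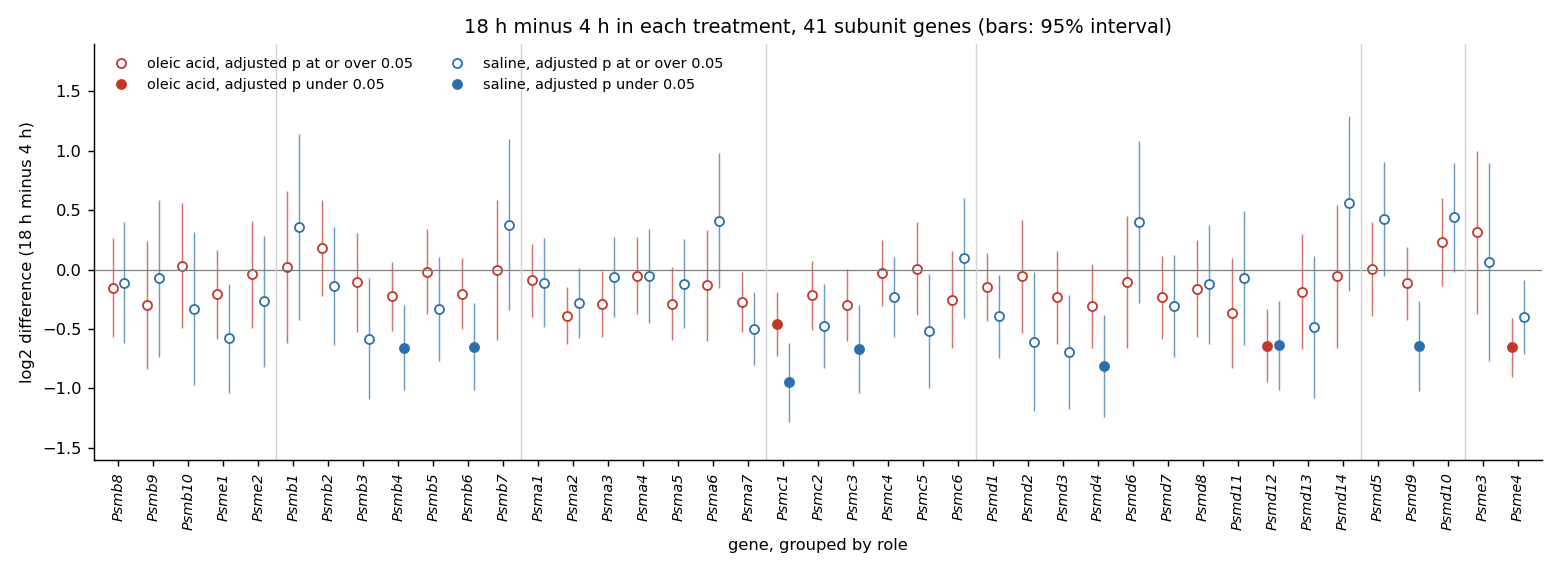
Difference in log2 signal, 18 h minus 4 h, for each subunit gene in oleic acid and in saline lungs, with 95% intervals and filled points where the adjusted p was under 0.05. The filled points are Psmc1, Psmd12 and Psme4 in oleic acid lungs and 7 genes in saline lungs, all of them below 0.

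Several measurements moved together with this fall. Brightness was one: in oleic acid lungs the median difference over all names with a mean log2 signal over 4 was -0.17 and that of the 15 members there -0.22. In saline lungs the median difference over all names was 0.14 for probes with a mean log2 signal under 0, -0.12 from 0 to 2, -0.25 from 2 to 4 and -0.44 over 4. In saline lungs these 15 members had a median of -0.58 with 5 called, 14.8% of all names in that range being called lower, and the 18 members from 2 to 4 had a median of -0.11. The highest mean fell at 4 h in both treatments for 7 of these 15 members, against 13.2% of all names over 4, and for 7 of the 18 members from 2 to 4, against 15.2%. Centring on another value was the second: with the array median in place of the 75th percentile, the median over all names in saline lungs was -0.52, where it had been -0.06, and that of the 36 subunits other than the inducible ones was -0.76, where it had been -0.30. Under quantile normalization the mean difference in saline lungs was 0.03 over the 36 and 0.09 over the 5 inducible genes. Cell type markers were the third: the mean log2 signal of the 6 neutrophil genes measured, relative to all saline arrays, ranged from -1.33 to 0.22 at 18 h and from -0.69 to 0.16 at 4 h in oleic acid lungs, with 0 of 6 called. In saline lungs it ranged from -0.88 to -0.69 at 18 h and from 0.22 to 0.92 at 4 h, with a median difference of -1.36 and 1 of 6 called (Retnlg, -1.84). The 8 lung epithelium markers averaged from -0.26 to -0.09 at 18 h and from -0.22 to 0.19 at 4 h in oleic acid lungs, with a median difference of -0.18 and none called. In saline lungs they averaged from -0.32 to -0.04 at 18 h and from 0.17 to 0.20 at 4 h, without overlap, with a median difference of -0.53 and 1 of 8 called (Hopx, -0.73). All 4 red cell genes measured were below 0 in both treatments, with medians of -1.01 in oleic acid and -0.75 in saline lungs, and all 5 B cell genes were above 0. The part of brightness, centring and cell content in the fall was not tested.

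**Figure D5:**
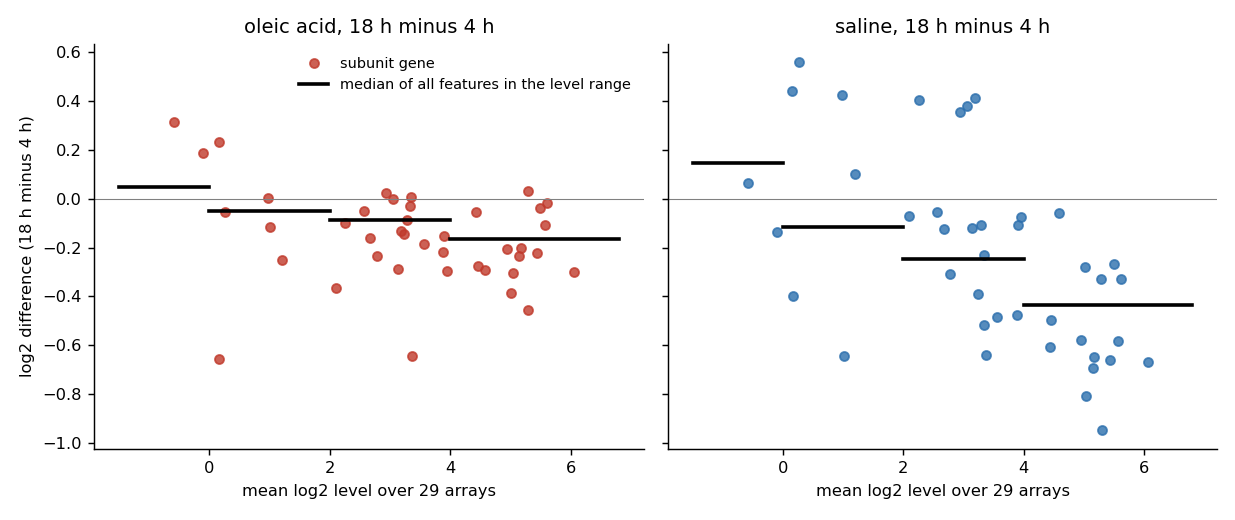
Difference in log2 signal, 18 h minus 4 h, of each subunit gene against its mean log2 signal over the 29 arrays, for oleic acid and saline lungs, with black lines for the median of all names in 4 ranges of level. In saline lungs the line steps down to -0.44 above a level of 4, and the members there have a median of -0.58.

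Of 8 genes that control proteasome expression, 2 were lower at 18 h than at 4 h in oleic acid lungs and 4 in saline lungs, where 2.83% and 4.59% of all names were called lower. Maff, a small Maf factor, differed by -1.84 in oleic acid (adjusted p = 0.00162) and -1.89 in saline lungs (adjusted p = 0.00646), and Ddi2, the protease that activates Nfe2l1, by -0.51 (0.0221) and -0.73 (0.0094). Of 11 genes for ubiquitin and shuttle factors, 2 were lower in oleic acid and 3 in saline lungs, among them the shuttle factor Ubqln1 (-0.68) in oleic acid lungs and the unfoldase Vcp (-0.59) in saline lungs. Of the 12 assembly, inhibitor and receptor genes measured, of 14 looked for, none was called in either treatment. Of 14 genes of MHC class I presentation, 0 were called in oleic acid and 1 in saline lungs, Pdia3, which was higher at 18 h by 1.03 (adjusted p = 0.0331), and of 22 interferon-gamma response genes none was called in either.

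Between treatments, none of these genes was called at any time. The 22 interferon-gamma response genes had a median oleic acid minus saline difference of 0.43 at 1.5 h with 20 above 0 and of 0.82 at 4 h with 19 above 0, beside -0.35 at 1 h with 17 below 0. Arrays of one group differed widely at the early times too. The mean of the list at 1 h ran from -0.11 to 0.16 over the oleic acid arrays and from 0.00 to 0.98 over the saline arrays. At 1.5 h it ran from 0.02 to 0.51 and from -0.15 to -0.08. How far single arrays set the 1 and 1.5 h values was not tested. The 4 h value rested much on 1 array: the mean of the list ran from -0.30 to 1.05 over the oleic acid arrays and from -0.66 to -0.00 over the saline arrays, and without oleic acid mouse 1 the median difference was 0.24 with 16 above 0. The 5 natural killer cell markers were also higher at 4 h, at a mean of 0.18 in oleic acid and -0.40 in saline lungs with all 5 differences above 0 and none called, and their part was not tested. At 4 h Gbp6 differed by 1.43 (0.33 to 2.53) and Cd274 by 1.25 (0.05 to 2.45), with every oleic acid array above every saline array, and Irgm2 by 1.44 (0.18 to 2.71), each with a limma adjusted p of 0.647. Without mouse 1 these differences were 0.95, 0.92 and 1.00. Tap1, which delivers peptides made by the proteasome to MHC class I, differed by 0.80 at 4 h (-0.08 to 1.68), and by 0.31 without mouse 1. Ifng itself differed by 0.83 for the mean of 1 to 4 h (0.06 to 1.61, adjusted p = 0.66). Beside these, Psmb8 and Psmb9 differed by 0.25 and 0.24 at 4 h, and Psmb10, Psme1 and Psme2 by -0.25, -0.24 and -0.24. Without mouse 1 the values for Psmb8 and Psmb9 were 0.01 and -0.06. Nfe2l1, the factor that raises proteasome genes when degradation fails, differed by -0.39 for the mean of 1 to 4 h, the inhibitor Psmf1 by 0.41 and the assembly factor Pomp by -0.12, with no call. In Irf1 and Nlrc5, the activators of Psmb8, Psmb9 and MHC class I genes, the same differences were 0.00 and 0.12.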

How the data were processed

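Whole-lung RNA of 31 mice was measured on 1-colour Agilent arrays on 4 slides. The intensity of each spot was deposited as the scanner software's processed signal, with background subtracted and no scaling between arrays, per the file headers, by Agilent Feature Extraction 10.5.1.1, per the submitters' processing notes. The authors' deposited table holds log2 values whose columns have nearly equal distributions, as seen in the values; its background step is not given in the sources used here, and it served as an alternative.

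Of 59305 non-control spots on each array, outlier spots were dropped and spots of the same probe averaged to 55681 probes. The log2 intensity minus the array's 75th percentile was taken, without 2 arrays with deviant spike-in response. A probe was kept where all arrays of 1 or more of the 12 groups read it well above background, and the brightest probe stood for each gene name, giving 25147. Group means were fitted with limma 3.58.1 (R 4.3.3, statmod 1.5.0, and version 1.17.8 of data.table) in 15 comparisons, 2 of them added after seeing the data, with Benjamini-Hochberg adjusted p under 0.05 as the threshold. Members were matched to RefSeq by accession for all 43 genes. Correlations used 100000 permutations over all arrays, which did not keep groups or slides apart.

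The members follow from a rule on gene names, but that rule and the gene lists were chosen with earlier results of these data known. Named with values were the 5 inducible genes, the 3 constitutive catalytic subunits, every member called, and the 3 members with the smallest p in other comparisons; from the lists, up to 4 genes with the smallest p and genes that stand for a role. Some genes that this rule takes are not reported here. No array replicated another: within 22 pairs of one group the SD of the difference was 0.495 to 1.19. The fit was tested on simulated data. The number of arrays limits the precision. Alternatives changed the arrays, background correction, scaling, probe filter, probe choice and slide.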

Additional observations from a re-analysis of the deposited data

How the results depend on the processing

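No member was called between oleic acid and saline under any of the alternatives that kept all 29 arrays or more, or without the 5 high-background arrays. In brackets below, treatment stands for oleic acid minus saline, early for the mean of 1 to 4 h, late for that of 18 and 24 h, and the fall by treatment for the difference of 18 minus 4 h between treatments. The values of differences are log2, the sets are the means over the 5 inducible and the 36 other subunits, and only results that changed side, sign or size are given. Over the named genes, 548 results kept side and direction under these alternatives, 68 lost their call and 40 changed sign. Results lost with all 31 arrays or with median centring include every call of a member. The cause was not tested.

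With all 31 arrays the names called were 0 (treatment at 4 h), 3 (treatment at 18 h), 0 (treatment at 24 h), 0 (late treatment), 26 (saline late minus early), 58 (oleic acid late minus early), 19 (saline 18 minus 4 h), 1 (oleic acid 24 minus 18 h), 35 (oleic acid 18 minus 4 h) and 1 (fall by treatment). The members called were 0 (oleic acid late minus early), 0 (saline 18 minus 4 h) and 0 (oleic acid 18 minus 4 h). The differences became Psma3 -0.71 (treatment at 3 h), Psmb7 -0.087, Psmb8 -0.11 and Psmb9 -0.091 (early treatment). 6 members were highest at 4 h in both treatments. With normexp background correction the names called were 0 (treatment at 4 h), 2 (treatment at 18 h), 1 (treatment at 24 h), 1 (late treatment), 0 (oleic acid 24 minus 18 h) and 0 (fall by treatment). Calls of members were 2 (saline 18 minus 4 h). The differences became Psmb9 0.059 (late treatment), Psmb8 0.086, Psmb9 0.0015 and the other set -0.14 (saline 18 minus 4 h). With quantile normalization the names called were 2 (treatment at 1.5 h), 1 (treatment at 4 h), 2 (treatment at 18 h), 2 (treatment at 24 h), 0 (late treatment), 760 (saline 18 minus 4 h) and 1 (fall by treatment). Among members, calls numbered 0 (oleic acid late minus early), 1 (saline 18 minus 4 h) and 1 (oleic acid 18 minus 4 h). The differences became Psmb9 0.062 and Psme1 0.016 (late treatment), Psmb10 0.069, Psmb5 0.11, Psmb8 0.18, Psmb9 0.22, Psme2 0.16, the inducible set 0.087 and the other set 0.027 (saline 18 minus 4 h), the other set -0.054 (oleic acid 18 minus 4 h). With the array median in place of the 75th percentile the names called were 0 (treatment at 4 h), 0 (late treatment), 31 (saline late minus early), 45 (oleic acid late minus early), 31 (saline 18 minus 4 h), 30 (oleic acid 18 minus 4 h) and 0 (fall by treatment). The members called were 0 (oleic acid late minus early), 0 (saline 18 minus 4 h) and 0 (oleic acid 18 minus 4 h). The differences became Psme4 0.12 (treatment at 18 h), Psmb10 0.10, Psmb5 0.039, Psmb6 0.092, Psmb9 0.24, Psme1 0.18, Psme2 0.028, Psmc1 0.085, Psmc3 0.029, the inducible set 0.18 and the other set 0.22 (late treatment), Psmb7 -0.088, the inducible set -0.74 and the other set -0.70 (saline 18 minus 4 h), the other set -0.29 (oleic acid 18 minus 4 h). 9 members were highest at 4 h in both treatments. In the authors' deposited table the names called were 0 (treatment at 24 h), 0 (late treatment) and 926 (saline 18 minus 4 h). Calls of members were 1 (oleic acid late minus early), 1 (saline 18 minus 4 h) and 1 (oleic acid 18 minus 4 h). The differences became Psmc2 0.047 (treatment at 24 h), Psme1 0.0026 (early treatment), Psmb10 0.030 and Psmb9 0.047 (late treatment), Psmb5 0.28, Psmb8 0.30, Psmb9 0.21, Psme2 0.22, the inducible set 0.11 and the other set 0.065 (saline 18 minus 4 h), the other set -0.059 (oleic acid 18 minus 4 h). 8 members were highest at 4 h in both treatments. With no filter on dim probes the names called were 1 (treatment at 4 h), 4 (late treatment), 360 (saline late minus early), 889 (oleic acid late minus early) and 876 (saline 18 minus 4 h). Among members, calls numbered 1 (oleic acid late minus early) and 1 (saline 18 minus 4 h). With only probes above background on all 29 arrays the names called were 0 (treatment at 4 h), 0 (treatment at 18 h), 0 (treatment at 24 h), 0 (late treatment), 0 (oleic acid 24 minus 18 h) and 0 (fall by treatment). With the mean of all kept probes the names called were 1 (treatment at 1.5 h) and 4 (late treatment). The differences became Psme2 0.024 (early treatment), Psme2 0.12 (saline 18 minus 4 h). With slide as a random block the names called were 4 (late treatment), 2554 (oleic acid late minus early) and 1856 (oleic acid 18 minus 4 h). Among members, calls numbered 5 (oleic acid late minus early). With slide as a fixed term, where it could be fitted, the names called were 12 (treatment at 3 h) and 0 (treatment at 24 h). Without the 5 high-background arrays the names called were 98 (treatment at 1.5 h), 1 (treatment at 4 h), 237 (treatment at 18 h), 25 (early treatment), 188 (late treatment), 111 (treatment late minus early), 746 (oleic acid late minus early), 513 (saline 18 minus 4 h), 1 (oleic acid 24 minus 18 h), 574 (oleic acid 18 minus 4 h) and 164 (fall by treatment). Among members, calls numbered 1 (oleic acid late minus early), 1 (saline 18 minus 4 h) and 1 (oleic acid 18 minus 4 h). The differences became Psmb7 -0.046 and Psmb9 -0.079 (early treatment), Psmb8 0.023, Psmb9 0.17 and the other set -0.14 (saline 18 minus 4 h).

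Replicate numbers are shared by the groups at each time, and the main fit did not take them as pairs. Deviations of same-numbered mice from their group means correlated between -0.77 and 0.61. Both values at 18 h were positive, 0.52 and 0.61, and there mouse 2 of each treatment was a high-background array. With 2 or 3 arrays a group, these correlations cannot show whether the numbers pair the samples. With the replicate block the names called were 0 (treatment at 4 h), 0 (treatment at 18 h), 0 (treatment at 24 h) and 0 (late treatment). The differences became Psme1 0.017 (early treatment), Psmb9 0.036 (late treatment). The block could not be fitted for comparisons between times, where the numbers mark different mice.

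Leaving out 1 array at a time gave names called of 0 to 2 (treatment at 1 h), 0 to 56 (treatment at 1.5 h), 0 to 117 (treatment at 3 h), 1 to 34 (treatment at 4 h), 3 to 131 (treatment at 18 h), 1 to 103 (treatment at 24 h), 0 to 23 (early treatment), 2 to 94 (late treatment), 0 to 44 (treatment late minus early), 205 to 813 (saline late minus early), 707 to 1485 (oleic acid late minus early), 442 to 1882 (saline 18 minus 4 h), 2 to 17 (oleic acid 24 minus 18 h), 592 to 1308 (oleic acid 18 minus 4 h) and 3 to 89 (fall by treatment). The members called ran 0 to 1 (treatment at 3 h), 1 to 3 (oleic acid late minus early), 1 to 8 (saline 18 minus 4 h) and 1 to 4 (oleic acid 18 minus 4 h), the single call at 3 h being Psmd11 without oleic acid mouse 1. Differences whose sign or size changed ran Psma5 -0.037 to 0.40 (treatment at 1.5 h), Psmb7 -0.12 to 0.23 (early treatment), Psmb9 -0.028 to 0.13 (early treatment), the inducible set -0.060 to 0.046 (early treatment), the other set -0.018 to 0.037 (early treatment), Psmb7 -0.016 to 0.15 (late treatment), Psmb9 -0.13 to 0.12 (late treatment), Psme1 -0.18 to 0.048 (late treatment), the inducible set -0.17 to 0.052 (late treatment), the other set -0.065 to 0.025 (late treatment), Psmb7 -0.047 to 0.80 (saline 18 minus 4 h), Psmb8 -0.29 to 0.076 (saline 18 minus 4 h), Psmb9 -0.38 to 0.23 (saline 18 minus 4 h), the inducible set -0.50 to -0.047 (saline 18 minus 4 h), the other set -0.32 to -0.14 (saline 18 minus 4 h) and the inducible set -0.29 to 0.017 (oleic acid 18 minus 4 h). Where this left a group with 1 array, that array was assumed to vary like the other groups.

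The number of mice sets the precision. In simulated data of the same layout a true log2 difference of 1 was recovered in 78% of genes for the early treatment mean. The share was 59% for the late one and 28% for saline 18 minus 4 h. Those genes were drawn from all names, each with its own within-group SD. Noise was independent between genes, with no effect shared by an array or a slide. The shares therefore do not give the recovery for the subunits. Comparisons at one time rest on 2 or 3 mice a group, so small shifts of the subunits were not resolvable. The fall after 4 h rests on 2 saline mice at each time, and how arrays are scaled changes its size and, for the set means, its sign. In saline lungs the mean over the other subunits was -0.70 with median centring. It was 0.027 under quantile normalization and 0.065 in the authors' deposited table. The inducible set gave -0.74, 0.087 and 0.11 in the same order. The members called in saline lungs stayed lower at 18 h under all 10 alternatives.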

Other observations

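Few subunits had their highest group mean at one and the same time other than 4 h in both treatments. At 1 h these were Psmb10 and Psme1, both inducible genes, against 5.54% of all names. Psme2, the PA28 beta subunit, had its highest group mean at 24 h in both treatments, and was the only member to do so, against 4.29% of all names. Psme3, the nuclear PA28 gamma activator, was highest at 3 h in both treatments, and Psmb2, Psmb7 and Psmd5 were highest at 1.5 h in both, against 4.72% and 6.87% of all names, so these counts lie near the background. Psmc5 was highest at 18 h in oleic acid lungs and at 4 h in saline lungs. These are counts of group means with no test.

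Of the 41 members 10 were read by more than 1 probe, and the probes did not always give one sign. For saline 18 h minus 4 h, Psme2 gave -0.27 with its brightest probe and 0.21 and 0.41 with the others, and Psma4 gave -0.05 and 0.33. The probes of Psmc1 (-0.95 and -0.50), Psmc2 (-0.48 and -0.56), Psmc3 (-0.67 and -0.49), Psmd9 (-0.64 and -0.33) and Psmd12 (-0.64 and -0.58) agreed in sign, and so did those of Psme4 (-0.40 and -0.83). Which probe reads the whole transcript population of Psme2 was not tested.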
